A study of Mus musculus with 103 samples.

Results

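The 2 dissected lung adenocarcinomas of the series were set against 4 samples of normal lung cells sorted on Prominin1, the membrane protein encoded by Prom1. These 6 samples were taken by their labels from 103 arrays of a mouse study that sorted such cells from several organs and collected primary tumours and metastases. The lung adenocarcinomas (n = 2) are labelled as primary, bronchopulmonary and dissected. The lung Prom1+ cells (n = 4) are labelled as normal primary cells. The study's design text describes tracing the lineage of cells that express Prom1 and switching on oncogenic changes in them. The labels of these 6 samples give no strain, allele, treatment, age or number of animals, so the genetic driver of the tumours is not known here. Nothing in the labels ties the samples to separate mice, so the p-values below cover only the variation among these samples, part or all of which may be technical. For the sort, lungs were dissociated, red cells were lysed, dead cells were removed and bead-bound cells were collected. RNA of these cells was extracted with a PicoPure kit, while tumour RNA was extracted with an RNeasy Mini kit and the tumours were not sorted. Dissociation, sorting, kit and disease state therefore cannot be told apart in this pair of groups.

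Lung adenocarcinoma is a gland-forming tumour of the lung, and in mice many such tumours keep features of alveolar type 2 cells. These cells make surfactant, a film of phospholipid and surfactant proteins that keeps the air sacs open, and they can give rise to the flat alveolar type 1 cells that carry gas exchange. Prom1 is a transmembrane glycoprotein of membrane protrusions that is used as a marker of stem and progenitor cells in several organs.

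Expression was measured as 1 array value per probe set on the log2 scale, and 17097 genes were represented by their probe set with the highest mean. The tumours resembled each other, with a Pearson r of 0.961 over all probe sets. The sorted samples were less alike. Among sorted cells 1, 2 and 4 the coefficient was 0.917 to 0.952, and sorted cells 3 had 0.809 to 0.867 with the other sorted samples. The 75th percentile of the array was 6.6 and 6.58 in the adenocarcinomas and 6.69, 6.39, 5.76 and 6.03 in the sorted cells, lowest in cells 3. The 3′ minus 5′ difference of the actin control probe sets, a measure that grows with RNA degradation, was 0.58 and 1.36 in the tumours, against 0.70 to 1.07 in the sorted cells. Values without cells 3, or without another single sample, are given beside the counts they change.

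Prom1 itself (Entrez gene 19126) had levels of 4.98 and 4.48 in the adenocarcinomas and 6.6, 6.75, 5.30 and 6.79 in the sorted cells. All 4 sorted samples lay above both tumours, and cells 3 was the lowest of them. Among sorted cells of the series, those of lung were low for Prom1, with a mean of 6.36. Untreated liver cells averaged 3.45 and liver cells labelled DDC-treated 7.04. Sorted cells of neonatal liver, kidney, prostate, salivary gland, small intestine, stomach and uterus averaged 9.33 to 11.99. The difference between lung tumours and lung sorted cells, -1.63 ± 0.65, did not pass the test (adjusted p = 0.164). This is limma's moderated test with Benjamini-Hochberg adjustment here and below.

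Markers of lung epithelium were checked next. Sftpc, the surfactant protein that defines alveolar type 2 cells, was near the top of the array's range in every sample, at 13.97 and 13.81 in the tumours and 13.35, 12.13, 11.91 and 12.82 in the sorted cells. Scgb1a1, the main secretoglobin of club cells, was at 13.04 and 10.14 in the tumours and 11.30, 12.08, 10.95 and 12.52 in the sorted cells, so the groups overlapped. Nkx2-1, a lung lineage transcription factor, stood at 3.87 and 3.01 in the tumours and 3.03, 3.21, 3.49 and 3.49 in the sorted cells. Foxj1, the regulator of ciliated cells, stood at 3.39 and 2.66 in the tumours and 3.30, 3.92, 3.76 and 3.35 in the sorted cells. Both lay under 4.14, the 40th percentile of the values, below which levels are near the array's background on all 6 arrays, and neither gene was tested. Each was read by a single probe set. Whether that probe set reports the transcript was not tested, so these values do not show that either gene is absent.

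The sorted samples also carried markers of blood and vessel cells. Ptprc, the pan-leukocyte antigen CD45, was at 9.79 and 8.38 in the tumours and 10.13, 11.79, 11.70 and 11.08 in the sorted cells. Chil3, a product of alveolar macrophages, was at 12.60 and 12.33 in the tumours and 12.20, 12.86, 13.34 and 12.66 in the sorted cells. Pecam1, which marks endothelium, was at 6.13 and 6.63 in the tumours and 10.49, 7.57, 7.06 and 8.99 in the sorted cells, highest in cells 1. The sorted samples are therefore called by their label, as bead-sorted lung cells, and not by a cell type. In such bulk samples fewer cells of a type and less RNA per cell cannot be told apart.

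Between the adenocarcinomas and the sorted cells, 642 genes rose and 266 fell. These are genes with an adjusted p under 0.05 and a log2 difference of at least 1, which is a doubling or halving. They made up 5.73% and 2.38% of the 11195 genes tested, and 8.11% together. Every list count of this comparison below is to be read beside these shares. The lists were chosen with earlier results of these data known. The median difference over all tested genes was 0.36. The largest increases were in Lcn2, Kng1, Chil1 and Meg3, and the largest decreases included the chemokines Cxcl1, Cxcl2 and Ccl7, the macrophage lectin Clec10a and the immediate early gene Atf3. Without tumour 1 the counts were 336 higher and 112 lower, and without tumour 2 they were 295 and 94. Leaving out a sorted sample gave 1039 higher and 466 lower without cells 1, 417 and 166 without cells 2, 675 and 420 without cells 3, and 409 and 149 without cells 4. The split depended on scaling. Higher genes were 70.7% of the calls on the deposited values, 55.5% after quantile normalization (601 higher, 482 lower) and 49.7% after median centring (528 higher, 535 lower), with median differences of 0.06 and -0.01 after those scalings. Each of the 30 genes described next as the largest increases and decreases kept its call and direction under every alternative that tested it.

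**Figure D1:**
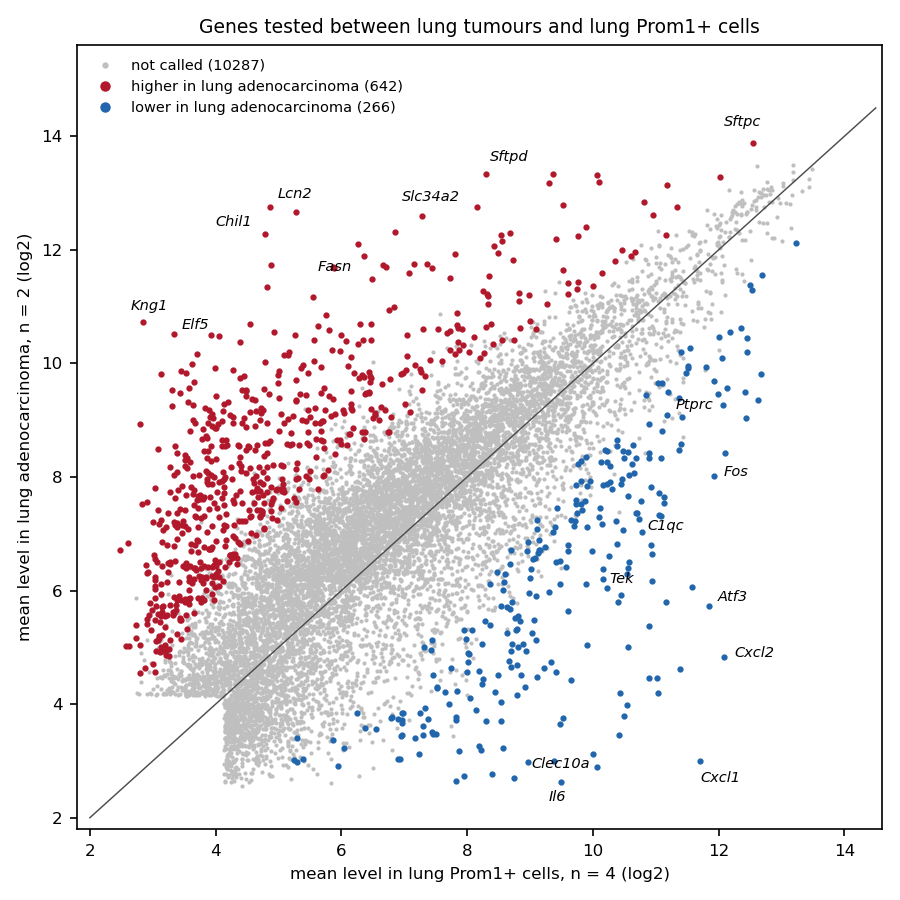
Mean log2 level of each tested gene in the 2 lung adenocarcinomas (vertical axis) against the 4 samples of lung Prom1+ cells (horizontal axis), with genes called higher in red (642), called lower in blue (266) and others in grey. The line marks equal levels. Lcn2, Kng1 and Chil1 lie far above it and Cxcl1, Cxcl2 and Il6 far below it.

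The largest increase was in Lcn2, which encodes lipocalin 2, a secreted siderophore-binding protein. Its levels were 12.83 and 12.70 in the adenocarcinomas, against 6.02, 4.19, 3.20 and 6.05 in the sorted cells. The difference of 7.90 ± 0.83 corresponds to a 239-fold higher level (adjusted p = 0.00037). The lowest tumour lay more than 6 units above the highest sorted sample. Chil1, a secreted chitinase-like glycoprotein, followed a similar course, with 12.08 and 12.49 in the tumours and 5.49, 4.55, 3.01 and 6.09 in the sorted cells (difference 7.50 ± 0.82, adjusted p = 0.000449). Kng1, the kininogen precursor of bradykinin, had 10.39 and 11.08 in the tumours and 2.81, 2.48, 3.22 and 2.90 in the sorted cells, where it was below the filter value in all 4. Its difference was 7.88 ± 0.58 (adjusted p = 0.000179), and the other Kng1 probe set gave 1.65. Differences against levels near background are lower bounds.

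Other genes with large increases belong to several classes. Meg3, a maternally expressed noncoding RNA, was at 12.82 and 12.53 in the tumours and 5.55, 6.41, 4.59 and 4.60 in the sorted cells, a difference of 7.39 ± 0.65 (adjusted p = 0.00023). Cd177, a glycoprotein best known from neutrophils, was at 12.35 and 8.68 in the tumours and 3.21, 3.01, 3.22 and 3.89 in the sorted cells, and tumour 1 was the higher by far. Its difference was 7.19 ± 0.90 (adjusted p = 0.000799). The ETS factor Elf5, known from gland and distal lung epithelium, was at 10.43 and 10.55 in the tumours and 3.65 to 4.30 in the sorted cells, a difference of 6.44 ± 0.58 (adjusted p = 0.00023). Its second probe set differed by 1.94. The tight junction protein Cldn2 (6.42 ± 0.60, with a second probe set at 0.73), the potassium channel Kcnk1 (6.35 ± 0.59), the laminin chain Lamb3 (6.52 ± 0.67), the mitochondrial creatine kinase Ckmt1 (6.68 ± 0.61), the proton pump subunit Atp6v1c2 (6.31 ± 0.58) and the secreted proteins Dmkn (6.86 ± 0.61) and Egfl6 (6.46 ± 0.80) were also among the largest increases. Tc2n (6.58 ± 0.64) and Gm19990 (6.23 ± 0.60) completed the 15. In all 15 both tumours lay above all 4 sorted samples, a condition met upward by 25.8% of the tested genes and part of the rule by which these were picked.

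**Figure D2:**
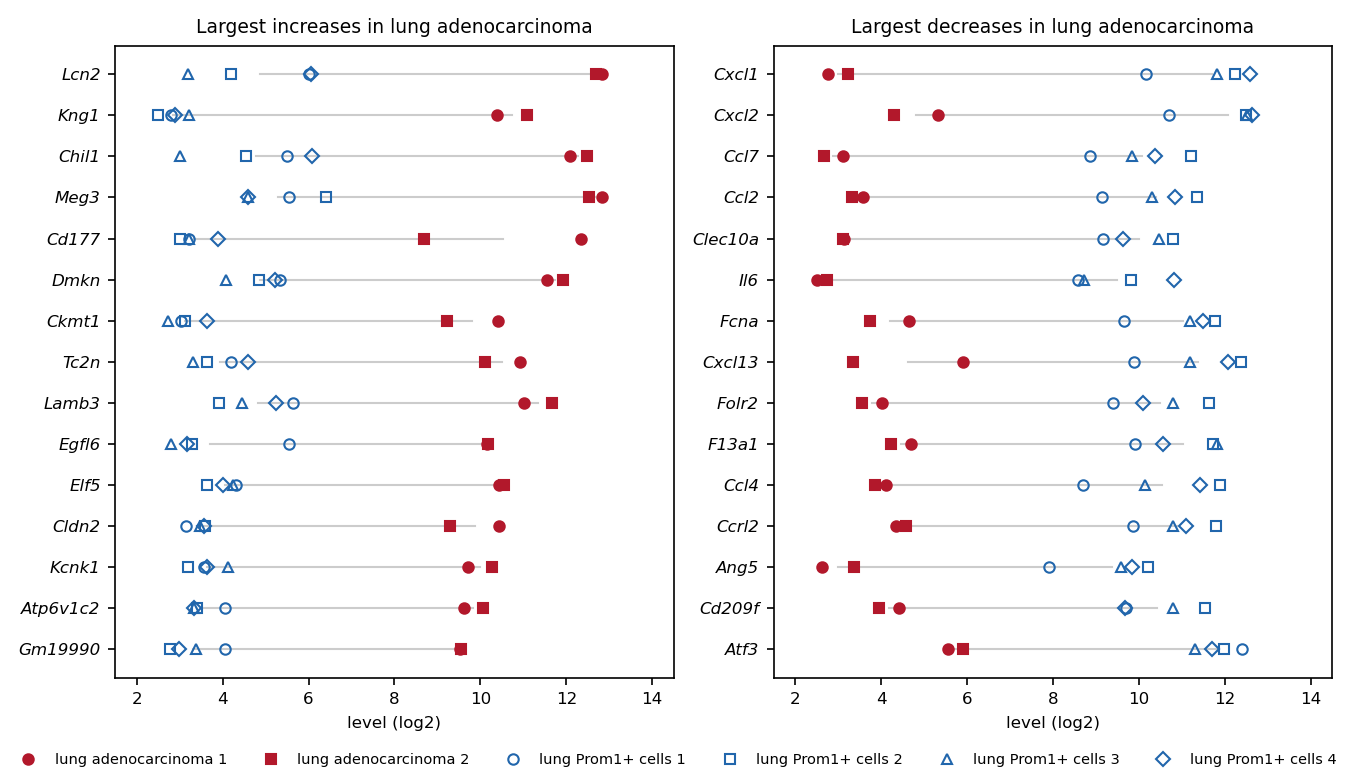
Log2 level in each sample (horizontal axis) of the 15 genes with the largest increases (left) and the 15 with the largest decreases (right) in lung adenocarcinoma. Filled red symbols are the 2 tumours, open blue symbols the 4 samples of lung Prom1+ cells, and grey lines join the group means. The groups do not overlap in any of these genes, and the tumours are furthest apart for Cd177, at 12.35 and 8.68.

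Alveolar type 2 genes were higher in the tumours as a group. Of 12 tested markers, 9 rose and 0 fell, with a median difference of 3.74. Their mean level was 11.11 and 11.04 in the tumours and 8.41, 7.46, 7.13 and 8.21 in the sorted cells. Slc34a2, the phosphate transporter of type 2 cells, was at 12.62 and 12.58 in the tumours and 9.08, 6.75, 5.80 and 7.52 in the sorted cells, a difference of 5.31 ± 0.76 (adjusted p = 0.00164). Sftpd, the surfactant collectin that binds microbes, was at 13.34 and 13.34 in the tumours and 9.86, 7.78, 6.96 and 8.59 in the sorted cells, a difference of 5.04 ± 0.66 (adjusted p = 0.000989). In both genes the sorted samples were spread over more than 2 units with cells 1 highest, and both tumours lay clear of them. Muc1, a membrane mucin of glandular and alveolar epithelium, differed by 5.83 ± 0.64 (adjusted p = 0.000462). Hc, complement component C5, differed by 5.63 ± 0.78 (adjusted p = 0.00145). For Sftpc every sample lay near the top of the array's range, and whether this limits its difference was not tested. That difference was 1.34 ± 0.34 (adjusted p = 0.0341). That call was lost under 10 alternatives, among them each scaling and the fits without cells 2 (adjusted p = 0.0812), cells 3 (0.0809), tumour 1 (0.21) or tumour 2 (0.16). Of the 12 type 2 markers, 4 rose without tumour 1 and 6 without tumour 2.

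Alveolar type 1 genes divided. Of 11 tested, 3 rose and 1 fell, with a median of 1.22. Aqp5, the water channel of type 1 cells, was at 11.48 and 11.88 in the tumours and 7.30, 5.12, 3.93 and 7.19 in the sorted cells (difference 5.80 ± 0.91, adjusted p = 0.00276). Pdpn, podoplanin, was at 10.24 and 10.60 in the tumours and 7.67, 6.99, 4.76 and 6.46 in the sorted cells (difference 3.95 ± 0.77, adjusted p = 0.00946). Ager, the receptor RAGE of the type 1 cell surface, was at 13.14 and 13.24 in the tumours and 11.88, 8.89, 8.35 and 11.29 in the sorted cells (difference 3.09 ± 0.83, adjusted p = 0.0452). All 3 separated the groups, but cells 1 and 4 came within 2 units of the tumours for Ager. The Ager call was lost under 9 alternatives, among them quantile normalization (adjusted p = 0.0604), median centring (0.0586) and the fits without cells 2 (0.0989), cells 3 (0.0917), tumour 1 (0.192) or tumour 2 (0.24). Without tumour 1 or tumour 2 only 1 type 1 marker rose and 0 fell. The gene that fell, looked up after the count was seen, was Cav1, a caveolar coat protein that endothelium also carries, at 9.48 and 9.31 in the tumours and 12.45, 10.89, 10.67 and 11.46 in the sorted cells (difference -1.97 ± 0.46, adjusted p = 0.0247). Club cell genes did not part the groups. Of 10 tested, 1 rose and 0 fell, and the median was 0.05. The gene that rose, Selenbp1, lost its call without tumour 1 (adjusted p = 0.247) or tumour 2 (0.176), and also without cells 2 (0.078) or cells 4 (0.0617).

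General epithelial genes moved together. Of 15 tested, 14 rose and 0 fell, with a median difference of 4.39, against 0.36 over all genes. Their mean level was 10.08 and 10.35 in the tumours and 6.50, 6.04, 5.45 and 6.35 in the sorted cells, lowest in cells 3. The keratin Krt18 was at 11.80 and 12.40 in the tumours and 7.09, 6.83, 4.31 and 6.83 in the sorted cells, a difference of 5.84 ± 0.77 (adjusted p = 0.00111). The claudins Cldn3 and Cldn7, tight junction proteins, differed by 5.63 ± 0.59 and 5.32 ± 0.63 (adjusted p = 0.00037 and 0.000607). Epcam, the epithelial adhesion molecule, was at 11.12 and 11.24 in the tumours and 7.43, 9.08, 8.77 and 8.05 in the sorted cells, a difference of 2.85 ± 0.52 (adjusted p = 0.00686). The exception, also looked up afterwards, was Krt19, at 10.67 and 10.06 in the tumours and 8.61, 9.61, 10.58 and 9.51 in the sorted cells, where cells 3 reached the level of the tumours. Without tumour 1, 9 of the 15 rose, and without tumour 2, 8 rose. The Epcam call was among those lost (adjusted p = 0.0678 and 0.0903).

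Transcription factors of lung and foregut endoderm included 8 of 17 tested genes that rose and 0 that fell (median 2.28). Foxa1 and Foxa2, the forkhead pioneer factors of endoderm, were at 9.24 and 9.54 and at 9.20 and 9.74 in the tumours. In the sorted cells they were at 6.06, 4.31, 4.31 and 5.38 and at 5.65, 5.44, 4.60 and 5.66. The differences were 4.38 ± 0.69 and 4.13 ± 0.61 (adjusted p = 0.00288 and 0.00204), with every tumour value above every sorted value. The Iroquois factor Irx3, expressed in developing lung epithelium, differed by 5.05 ± 0.80 (adjusted p = 0.00294), and Irx1 by 2.97 ± 0.57 (adjusted p = 0.00913). Without tumour 2, which leaves 1 tumour array, 1 of the 17 rose and the adjusted p of these 4 genes lay between 0.0569 and 0.0729. The differences were then 4.22 for Foxa1, 3.86 for Foxa2 and 4.31 for Irx3, and the median of the list was 2.42. Without tumour 1, 6 of 16 tested rose.

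Lipid genes of the surfactant pathway showed a smaller set of changes. Of 13 tested, 4 rose and 0 fell (median 1.01). Fasn, fatty acid synthase, was at 11.43 and 11.53 in the tumours and 7.50, 6.86, 5.03 and 6.56 in the sorted cells, a difference of 4.99 ± 0.68 (adjusted p = 0.00126). Lpcat1, the acyltransferase that makes the dipalmitoyl phosphatidylcholine of surfactant, was at 12.49 and 12.08 in the tumours and 8.94, 8.82, 8.30 and 8.69 in the sorted cells. Its difference was 3.60 ± 0.38 (adjusted p = 0.00037), with 2 other probe sets at 4.47 and 4.77 and another 2 near background. The desaturase Scd1 (3.26 ± 0.44) and the elongase Elovl1 (2.52 ± 0.33) were the other 2 that rose. All 4 kept their call without tumour 1 and without tumour 2. Secreted and surface genes known from lung tumours gave 6 increases among 17 tested and 0 decreases (median 0.92). Beside Lcn2 they included Wfdc2, a secreted whey acidic protein domain inhibitor, at 12.62 and 12.87 in the tumours and 8.37, 8.16, 7.24 and 8.89 in the sorted cells (4.58 ± 0.48, adjusted p = 0.00037). Without tumour 1, 3 of the 17 rose. Among mucins and trefoil factors 3 of 9 rose and 0 fell, and the largest besides Muc1 was Muc20 (4.78 ± 0.54, adjusted p = 0.000535).

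Genes that report MAP kinase signalling, the pathway downstream of Ras, gave 4 increases and 1 decrease among 17 tested, with a median of 1.81. Over all tested genes 5.73% rose and 2.38% fell. Spry2, a feedback inhibitor of the pathway, was at 9.39 and 8.97 in the tumours and 7.96, 5.53, 4.09 and 4.30 in the sorted cells (3.71 ± 0.99, adjusted p = 0.0428). Ereg, the growth factor epiregulin, was at 9.42 and 4.88 in the tumours and 3.40, 3.18, 3.55 and 3.75 in the sorted cells (3.68 ± 0.98, adjusted p = 0.0439). Tumour 1 was far above tumour 2 for Ereg. Etv5, an ETS factor induced by the pathway and also a type 2 marker, differed by 3.05 ± 0.57 (adjusted p = 0.00786). These calls were fragile, with 10 genes higher without cells 1, 2 without cells 2, 1 without cells 4, 0 without tumour 1 and 1 without tumour 2. The member that fell, Ier3, is an early response gene and is described with that group.

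Proliferation genes did not pass the test in either direction. Of 17 tested, 0 rose and 0 fell by limma, with a median of 1.02, in a comparison where 2586 of 11195 genes had an unadjusted p under 0.05. Their mean level was 5.80 and 5.34 in the tumours and 4.20, 5.30, 4.42 and 5.12 in the sorted cells, so tumour 2 and cells 2 nearly met. Mki67, the cell cycle antigen Ki-67, was at 7.46 and 7.23 in the tumours and 5.44, 7.94, 5.96 and 8.53 in the sorted cells, a difference of 0.38 ± 0.88 (adjusted p = 0.811). Sorted cells 2 and 4 were above both tumours for Mki67, and cells 1 and 3 below both. DNA replication genes (21 tested, median 0.67), the p53 axis with cell cycle inhibitors (15 tested, median 0.58) and hypoxia and glycolysis genes (16 tested, median 0.65) also had 0 calls. In simulated data where few genes differed, 12% of genes given a log2 change of 2 were called, 40% for 3 and 68% for 4. Far more genes differed in the real comparison, which makes the adjusted threshold less strict there. These shares are therefore not the power of the real test. A gene or list without calls here is not shown to be unchanged.

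**Figure D3:**
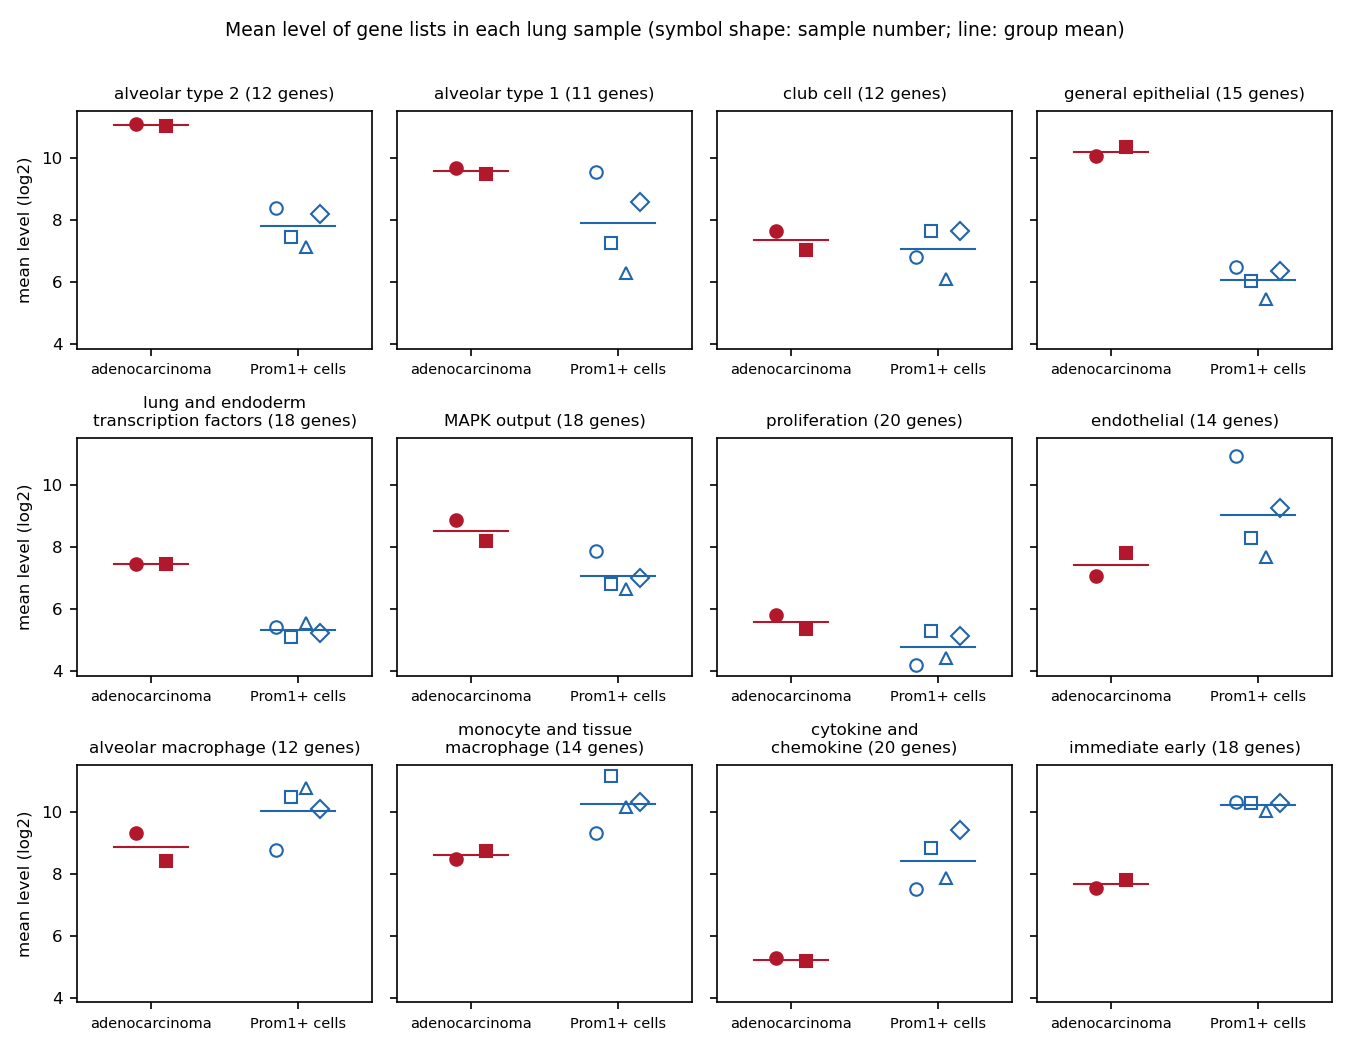
Mean log2 level of 12 gene lists in each sample, with the 2 lung adenocarcinomas on the left of each panel (filled red) and the 4 samples of lung Prom1+ cells on the right (open blue). Alveolar type 2, general epithelial and transcription factor lists lie higher in both tumours, and the cytokine and immediate early lists lie lower in both. The club cell list overlaps between the groups, and the endothelial list is highest in sorted cells 1, at 10.93.

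The largest decrease was in Cxcl1, a chemokine that attracts neutrophils. Its levels were 2.77 and 3.22 in the adenocarcinomas, near background, against 10.18, 12.24, 11.83 and 12.59 in the sorted cells. The difference of -8.71 ± 0.66 corresponds to a 420-fold lower level (adjusted p = 0.000179). The related chemokine Cxcl2 was at 5.34 and 4.31 in the tumours and 10.70, 12.50, 12.52 and 12.64 in the sorted cells (-7.27 ± 0.59, adjusted p = 0.000214). In both genes cells 1 was the lowest sorted sample and still stood more than 5 units above the tumours. Il6, the cytokine interleukin 6, was at 2.52 and 2.74 in the tumours and 8.59, 9.82, 8.73 and 10.83 in the sorted cells (-6.86 ± 0.72, adjusted p = 0.00037). The monocyte chemokines Ccl2 and Ccl7 fell by 6.95 and 7.18, and Ccl4, a macrophage chemokine, fell by 6.55 on the log2 scale. Cxcl13, a B cell chemokine, was at 5.91 and 3.35 in the tumours and 9.88, 12.38, 11.19 and 12.09 in the sorted cells (-6.76 ± 0.81, adjusted p = 0.000663). Ccrl2, an atypical chemokine receptor, differed by -6.42 ± 0.57. Over the whole list of cytokines and chemokines, 10 of 19 tested genes fell and 0 rose (median -2.84). Without tumour 1, 6 of 18 fell, and without tumour 2, 7 of 20. Not all members were low. Ccl6, a chemokine of myeloid cells picked after its values were seen, stood at 12.92 and 12.07 in the tumours and 11.97, 12.97, 13.06 and 12.55 in the sorted cells.

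Promoters of the largest changes were searched for 1 sequence. Of the 30 genes, 25 had an entry in RefSeq's promoter table for mouse assembly GRCm38.p6, 14 of them among the increases and 11 among the decreases. Kng1, Ccl7, Ccl2, Clec10a and Ccl4 had none. The letters GGG, any 2 bases and TTTCC, a form of the binding sequence of NF-kappa-B, was looked for on both strands of the 250 bases before each start site, after the values had been seen. It was found in 3 of the 11 genes that fell, Cxcl1, Cxcl2 and Il6, and in 0 of the 14 that rose. Cxcl1 and Cxcl2 are related genes that lie close together, so their matches are not independent. Counted by window and not by gene, 1.41% of the 32851 windows in the table held it. A match is a description of letters and does not show binding, and a part of NF-kappa-B in these decreases was not tested. The 3 windows are shown because they held a match. They run 5′ to 3′ on the plus strand, with every motif match in capitals, and all 3 genes lie on chromosome 5.
Cxcl1 (chr5:90890995-90891244): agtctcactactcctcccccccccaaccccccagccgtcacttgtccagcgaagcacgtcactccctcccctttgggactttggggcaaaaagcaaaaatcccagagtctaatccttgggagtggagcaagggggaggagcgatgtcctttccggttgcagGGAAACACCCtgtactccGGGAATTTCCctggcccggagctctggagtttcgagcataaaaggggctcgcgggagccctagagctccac
Cxcl2 (chr5:90903649-90903898): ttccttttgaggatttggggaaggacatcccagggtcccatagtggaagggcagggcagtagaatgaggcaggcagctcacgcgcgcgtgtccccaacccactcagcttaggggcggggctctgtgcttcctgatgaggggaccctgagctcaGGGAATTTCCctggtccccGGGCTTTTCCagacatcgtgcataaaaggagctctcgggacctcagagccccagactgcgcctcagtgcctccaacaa
Il6 (chr5:30012864-30013113): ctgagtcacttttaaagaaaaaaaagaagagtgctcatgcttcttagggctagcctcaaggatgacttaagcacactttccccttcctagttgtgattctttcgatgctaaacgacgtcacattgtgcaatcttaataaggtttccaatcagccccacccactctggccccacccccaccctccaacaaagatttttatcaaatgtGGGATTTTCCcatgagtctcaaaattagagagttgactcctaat
Cxcl1 and Cxcl2 each hold 2 matches, of which GGGAATTTCC is common to both, and Il6 holds 1, GGGATTTTCC, that begins 44 bases before its start.

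Several macrophage genes were also among the 15 largest decreases. Clec10a, a galactose-binding lectin of macrophages and dendritic cells, was at 3.14 and 3.12 in the tumours and 9.16, 10.79, 10.48 and 9.62 in the sorted cells (-6.89 ± 0.62, adjusted p = 0.00023). Folr2, the folate receptor beta of tissue macrophages, was at 4.02 and 3.56 in the tumours and 9.41, 11.63, 10.80 and 10.11 in the sorted cells (-6.70 ± 0.65, adjusted p = 0.000271). F13a1, the coagulation factor XIII subunit made by resident macrophages, differed by -6.55 ± 0.61, the ficolin Fcna by -6.83 ± 0.64, the lectin Cd209f by -6.24 ± 0.63 and Ang5, an angiogenin family ribonuclease, by -6.39 ± 0.73. These 6 genes stood between 7.91 and 11.83 in the sorted samples and at most at 4.70 in the tumours. Among 14 tested genes of monocytes and tissue macrophages, 7 fell and 0 rose (median -1.71). The complement C1q chain C1qc was at 6.69 and 7.83 in the tumours and 9.54, 11.78, 10.89 and 10.73 in the sorted cells (-3.48 ± 0.60, adjusted p = 0.00475). Without tumour 1, which leaves 1 tumour array, 0 of the 14 were called, with a list median of -1.80 and a C1qc difference of -2.91 (adjusted p = 0.0533). The count was 4 without tumour 2, 3 without cells 2, and 4 without cells 3 or cells 4.

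Of 12 alveolar macrophage genes tested, 1 fell and 0 rose (median -0.88), and their mean level was 9.30 and 8.42 in the tumours and 8.78, 10.47, 10.77 and 10.08 in the sorted cells. Krt79, the gene that fell, was at 4.27 and 7.02 in the tumours and 7.49, 10.54, 11.06 and 9.35 in the sorted cells (-3.96 ± 1.0, adjusted p = 0.0355). It lost its call without cells 2, cells 3, cells 4 or tumour 1, with adjusted p between 0.0756 and 0.305. Mrc1, the mannose receptor, was at 10.20 and 7.22 in the tumours and 10.40, 12.21, 12.25 and 10.85 in the sorted cells, and missed the threshold (adjusted p = 0.0534). Of the list, 3 genes fell without cells 1, and 0 without cells 2, cells 3 or cells 4. Among the sorted samples, cells 1 had the lowest mean level of this list and the highest of the endothelial one. Ptprc differed by -2.09 ± 0.53 (adjusted p = 0.0357), and its call was lost without cells 2, 3 or 4 or tumour 2, with adjusted p between 0.0819 and 0.356.

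Of 14 endothelial genes tested, 3 fell and 1 rose (median -2.10), and their mean level was 7.07 and 7.79 in the tumours and 10.93, 8.29, 7.68 and 9.26 in the sorted cells, so tumour 2 lay above cells 3 and the groups overlapped. Tek, the angiopoietin receptor TIE2, was at 6.46 and 6.32 in the tumours and 12.32, 9.25, 9.0 and 10.08 in the sorted cells (-3.78 ± 0.81, adjusted p = 0.0159). Cldn5, the endothelial claudin, was at 6.62 and 7.85 in the tumours and 11.75, 9.81, 9.11 and 10.80 in the sorted cells (-3.13 ± 0.70, adjusted p = 0.0188), and Calcrl, an adrenomedullin receptor, differed by -2.57 ± 0.56. For Pecam1 the difference of -2.15 ± 0.87 did not pass (adjusted p = 0.17). Ramp2, a partner of Calcrl, was called higher on its brightest probe set (3.05 ± 0.81), but its 3 probe sets gave 3.05, 2.48 and -3.06, so its direction is uncertain. Without tumour 1, 0 endothelial genes fell, and without tumour 2 or without cells 4, 1 did. Fibroblast and matrix genes gave 1 decrease among 17 (median -0.84), where 2.38% of all tested genes fell. Col1a1, type I collagen, was at 4.38 and 6.44 in the tumours and 7.03, 6.78, 4.88 and 5.33 in the sorted cells.

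Immediate early genes, which cells switch on within minutes of a stimulus, were lower in the tumours. Of 17 tested, 12 fell and 0 rose, with a median of -2.36. Their mean level was 7.53 and 7.79 in the tumours and 10.31, 10.27, 10.04 and 10.29 in the sorted cells, with little spread within either group. Atf3, a stress-induced factor, was at 5.56 and 5.91 in the tumours and 12.41, 11.98, 11.30 and 11.71 in the sorted cells (-6.12 ± 0.42, adjusted p = 0.000179). Fosb, an AP-1 subunit, was at 2.58 and 2.95 in the tumours and 8.36, 8.84, 8.21 and 8.20 in the sorted cells (-5.64 ± 0.59, adjusted p = 0.000367). Fos, its relative, was at 8.77 and 7.28 in the tumours and 12.02, 12.02, 11.98 and 11.67 in the sorted cells (-3.90 ± 0.41, adjusted p = 0.00037). The orphan nuclear receptor Nr4a1 differed by -3.72 ± 0.45 and the apoptosis regulator Ier3 by -2.81 ± 0.29. Without tumour 1, 8 fell and without tumour 2, 9 fell. Heat shock genes gave 3 decreases among 9 tested (median -1.05), led by Hspa1b, an inducible Hsp70 chaperone, at 8.55 and 10.44 in the tumours and 12.49, 12.19, 12.58 and 12.43 in the sorted cells (-2.92 ± 0.43, adjusted p = 0.00185). Their count was 1 without tumour 1, cells 2 or cells 4. Only the sorted samples had been dissociated and sorted, and the part of those steps in these genes cannot be told apart from the disease state here.

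The tumour minus sorted cell difference of lung was therefore set against the mean of the same difference in 5 other organs with 32 tumours and 17 sorted samples, where tumours and sorted cells had been prepared in the same 2 ways, by the shared protocol text. These pairs were hepatocellular carcinoma/cholangiocarcinoma (HCC/CC) with untreated liver cells, prostatic adenocarcinoma, gastric adenocarcinoma and uterine carcinoma with cells of their organs, and small intestinal adenoma with small intestinal cells. The lung difference was higher in 1681 genes (12.8% of 13160 tested) and lower in 1035 (7.86%), with a median of 0.13. Without tumour 2 the counts were 943 and 480, and without tumour 1, 635 genes were lower. The 6 lung samples are those of the comparison above, so the lung values are the same and are no separate evidence.

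For most immediate early genes no difference between lung and the other organs was detected. Of 18 tested, 0 were higher and 3 were lower, where 12.8% and 7.86% of all tested genes were. The median of the list was -0.55, against 0.13 over all genes. Fos differed by -3.90 in lung, against -4.46 in liver, -3.57 in prostate, -4.19 in stomach, -4.21 in uterus and -1.64 in small intestine. The lung value minus the mean of the others was -0.28 ± 0.71 (adjusted p = 0.818). Fosb differed by -5.64 in lung, against -1.79 in liver, -6.79 in prostate, -4.15 in stomach, -7.89 in uterus and -3.29 in small intestine, and the lung value minus their mean was -0.86 ± 0.59 (adjusted p = 0.313). Hspa1b gave -2.92 in lung and a mean of -2.52 elsewhere, a difference of -0.40 ± 0.90 (adjusted p = 0.794). The values of Fos, Fosb and Hspa1b were thus negative in all 6 organs, which were not tested one by one. A p that misses the threshold does not show that lung and the other organs were alike. Atf3 was among the 3 exceptions, with -6.12 in lung and a mean of -2.98 elsewhere (-3.14 ± 0.69, adjusted p = 0.000754).

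The tumour minus sorted cell differences of chemokines and macrophage genes were lower in lung than in the other organs on average. Of 20 tested cytokine and chemokine genes 12 were lower and 0 higher. Cxcl1 differed by -8.71 in lung, against -0.15 in liver, -5.14 in prostate, 1.21 in stomach, -4.49 in uterus and 1.99 in small intestine, so prostate and uterus also had large negative values. The lung value minus the mean of the others was -7.40 ± 1.04 (adjusted p = 5.60e-07). Ccl2 and Clec10a had the same layout, with lung minus other organs at -5.43 ± 0.94 and -5.39 ± 1.09. Cxcl13 differed by -6.76 in lung, against -1.71 in liver, -0.12 in prostate, 4.48 in stomach, -1.30 in uterus and 0.67 in small intestine (lung minus mean -7.16 ± 1.51, adjusted p = 0.000459). F13a1 (-6.23 ± 1.30), Ang5 (-5.76 ± 1.03) and the lectin receptor Clec4d (-5.25 ± 1.18) were also among the 10 lowest. Among monocyte and tissue macrophage genes 8 of 14 were lower, and among endothelial genes 10 of 14. Postn and Plat, which encode the matrix protein periostin and tissue plasminogen activator, differed by -1.58 and -0.99 in lung, neither of them called, against means of 3.69 and 4.47 elsewhere. Their lung minus other values were -5.27 ± 0.84 and -5.46 ± 1.0 (adjusted p = 6.13e-06 and 6.74e-05). Prkg2, a cGMP-dependent protein kinase, completed the 10 (-5.53 ± 0.85, adjusted p = 3.36e-06).

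Among genes whose difference was higher in lung was Kng1, with 7.88 in lung. Its values elsewhere were 0.13 in liver, 0.67 in prostate, -0.07 in stomach, 1.61 in uterus and -0.51 in small intestine. The lung value minus the mean of the others was 7.52 ± 0.55 (adjusted p = 6.47e-15). Chil1 (6.73 ± 0.88), Ckmt1 (7.43 ± 1.19), Kcnk1 (6.69 ± 1.05) and Atp6v1c2 (7.34 ± 0.68) were also among the 10 highest, with a prostate value of -5.39 for Atp6v1c2. Meg3 differed by 7.39 in lung, against -1.81 in liver, 2.90 in prostate, 1.68 in stomach, -2.65 in uterus and 0.01 in small intestine (7.36 ± 1.56, adjusted p = 0.000482). Arg2, the mitochondrial arginase, was at 10.26 and 10.49 in the lung tumours and 3.54, 4.43, 3.22 and 6.39 in the lung cells, and its lung minus other value was 7.51 ± 1.27, with -6.88 in small intestine as the most distant organ. Gkn2, a secreted gastrokine of stomach mucosa, was at 11.34 and 7.31 in the lung tumours and 2.90, 3.01, 4.66 and 3.68 in the lung cells (7.12 ± 1.11 against the other organs, adjusted p = 4.25e-06). Aldh1a7, an aldehyde dehydrogenase, gave 7.22 ± 1.04. Myh7, the slow and cardiac myosin heavy chain, was at 10.47 and 10.90 in the lung tumours and 4.40, 4.38, 3.77 and 5.64 in the lung cells, and both of its probe sets were higher in the tumours (6.15 and 7.03). No other organ had a positive Myh7 value, with -1.17 in liver, -0.19 in prostate, -1.58 in stomach, -0.15 in uterus and -0.79 in small intestine (6.92 ± 0.37, adjusted p = 2.43e-20). Other muscle genes did not follow it, since Actc1, cardiac actin, was at 3.35 and 2.91 in the lung tumours and 7.29, 7.07, 6.49 and 8.09 in the lung cells. The difference was higher in lung for 11 of 15 epithelial genes and lower for 0, and for 8 of 12 type 2 genes and 0. The Lcn2 difference was higher in lung by 3.82 ± 0.88 (adjusted p = 0.00114), although liver had 8.04. All 20 of the genes named for this comparison kept their call under every alternative.

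**Figure D4:**
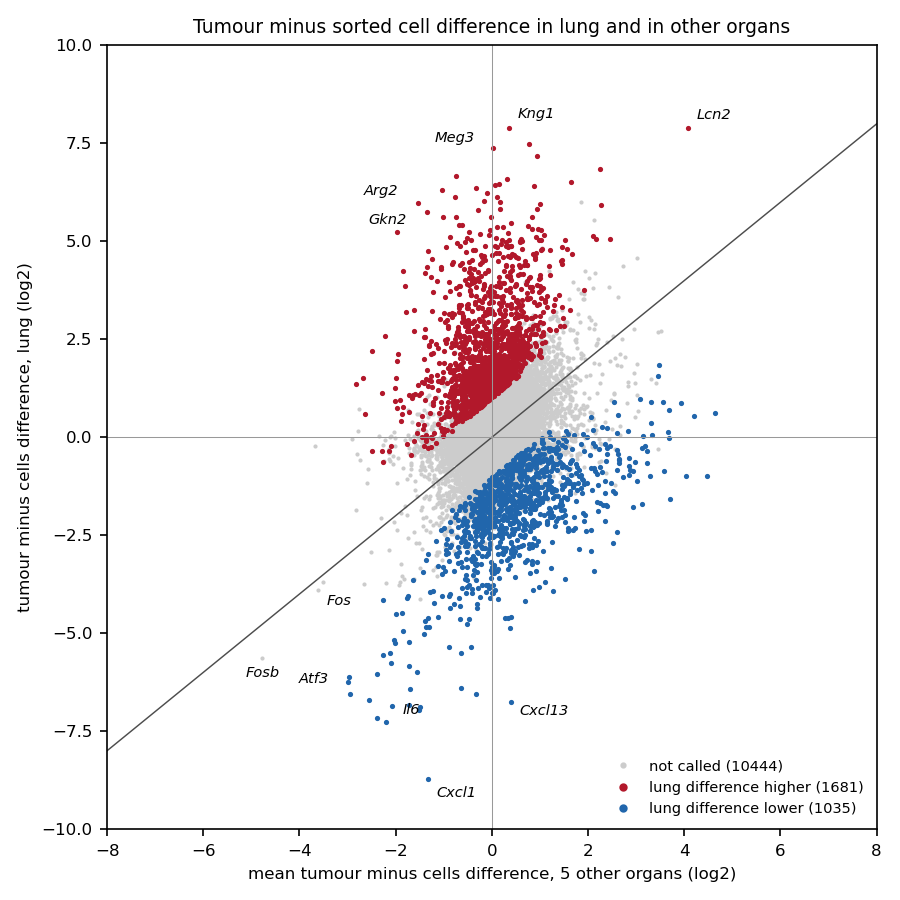
Tumour minus sorted cell difference of each tested gene in lung (vertical axis, log2) against the mean of that difference in liver, prostate, stomach, uterus and small intestine (horizontal axis, log2). Red and blue genes were called higher (1681) or lower (1035) in lung than in the other organs, and the line marks equal differences. Fos and Fosb lie near the line with negative values on both axes, and Kng1 and Cxcl13 lie near 0 on the horizontal axis only.

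The same tumours were also set against 29 carcinomas of 4 other organs, all dissected and extracted with the same kit: HCC/CC (n = 14), prostatic adenocarcinoma (n = 8), gastric adenocarcinoma (n = 4) and uterine carcinoma (n = 3). Here 851 genes were higher (7.08% of 12022) and 614 lower (5.11%), with a median of -0.09. Without tumour 2 there were 729 calls in all, 224 of them lower, against 1465. Surfactant and airway genes led. Sftpc averaged 13.89 in the lung tumours, against 3.16 in HCC/CC, 2.97 in prostatic, 2.85 in gastric and 4.15 in uterine tumours (10.61 ± 0.49, adjusted p = 1.36e-16). Sftpa1, surfactant protein A, averaged 13.34, against 3.50 in HCC/CC, 2.99 in prostatic, 2.93 in gastric and 2.91 in uterine tumours (10.25 ± 0.29, adjusted p = 2.86e-22). Sftpa1 was near background in these 4 tumour types, and Sftpc reached 6.87 in 1 uterine carcinoma. Dissected lung metastases of liver tumours, 1 array each and outside this comparison, also had high values. Sftpc and Scgb1a1 were at 12.95 and 12.70 in that of HCC/CC, and at 11.53 and 8.96 in that of hepatoblastoma. The share of normal lung tissue in any dissected sample was not tested. Ager (8.38 ± 0.91), Scgb1a1 (8.16 ± 0.45), the lung chemokine Cxcl15 (6.94 ± 0.72), Slc34a2 (6.92 ± 1.05) and the claudin Cldn18 (6.77 ± 1.03) followed, with Chil1 (7.56 ± 0.65), Cd177 (6.79 ± 0.74) and Myh7 (7.44 ± 0.19). All 12 type 2 genes tested were higher, as were 7 of 11 type 1 genes, 6 of 11 club cell genes and 11 of 17 lung and endoderm transcription factors, with 0 lower in each list. The club cell signal differed between the tumours, since Scgb1a1 was at 13.04 and 10.14. General epithelial genes gave 1 higher and 0 lower of 15, and immediate early genes 1 higher and 0 lower of 16.

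Genes lower in the lung tumours than in the other carcinomas were led by Sprr1a, a cornified envelope precursor. It averaged 4.58 in the lung tumours, against 7.31 in HCC/CC, 11.17 in prostatic, 11.16 in gastric and 10.18 in uterine tumours (-5.37 ± 0.97, adjusted p = 0.000186). Lum, the stromal proteoglycan lumican, averaged 4.12, against 8.38 in HCC/CC, 9.49 in prostatic, 8.76 in gastric and 9.86 in uterine tumours (-5.01 ± 0.88, adjusted p = 0.000133). Lgr4, an R-spondin receptor of the Wnt pathway, averaged 4.60, against 8.89 in HCC/CC, 9.88 in prostatic, 7.67 in gastric and 8.71 in uterine tumours (-4.18 ± 0.40, adjusted p = 4.42e-09). In all 3 genes the lung mean lay below that of each of the other 4 tumour types. Of 13 Wnt feedback targets tested, 6 were lower and 1 higher. The others of the 10 lowest were Sprr2a1, Penk, Steap1, Steap2, Tmem45b, Itih5 and Mmp7, with differences of -4.13 to -4.68. Mmp7 (matrilysin) lost its call without tumour 1 or tumour 2, and Sprr2a1, Steap2, Tmem45b and Itih5 without tumour 2.

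The 2 tumours also differed from each other. Over the 11195 tested genes, the median absolute difference between them was 0.47, 2057 genes differed by more than 1 and 96 by more than 3. Single arrays allow no test of these differences. The 3′ minus 5′ actin difference was 0.58 in tumour 1 and 1.36 in tumour 2, and the part of RNA quality here was not tested. Tumour 1 was higher for Sox2, a factor of airway and other foregut epithelium, at 7.88 in tumour 1 and 2.39 in tumour 2, with 2.60 to 3.46 in the sorted cells. Ly6k, a GPI-anchored surface protein, was at 9.31 in tumour 1 and 3.48 in tumour 2, Ivl, the envelope protein involucrin, at 8.15 and 3.65, and Scgb3a2, an airway secretoglobin, at 10.71 and 6.13. Gkn2 and Cd177, named above, were also higher in tumour 1. Tumour 2 was higher for Bpifa1, an airway secretory protein, at 5.45 in tumour 1 and 11.72 in tumour 2, with 5.45 to 9.97 in the sorted cells. Ttr, transthyretin, was at 2.47 in tumour 1 and 10.08 in tumour 2, and Dlk1, an imprinted membrane protein, at 6.79 and 12.08. Cdh16, a cadherin of kidney and thyroid epithelium, was at 6.28 and 10.80. Except for Gkn2 and Cd177, the genes of this paragraph were chosen after their values were seen.

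**Figure D5:**
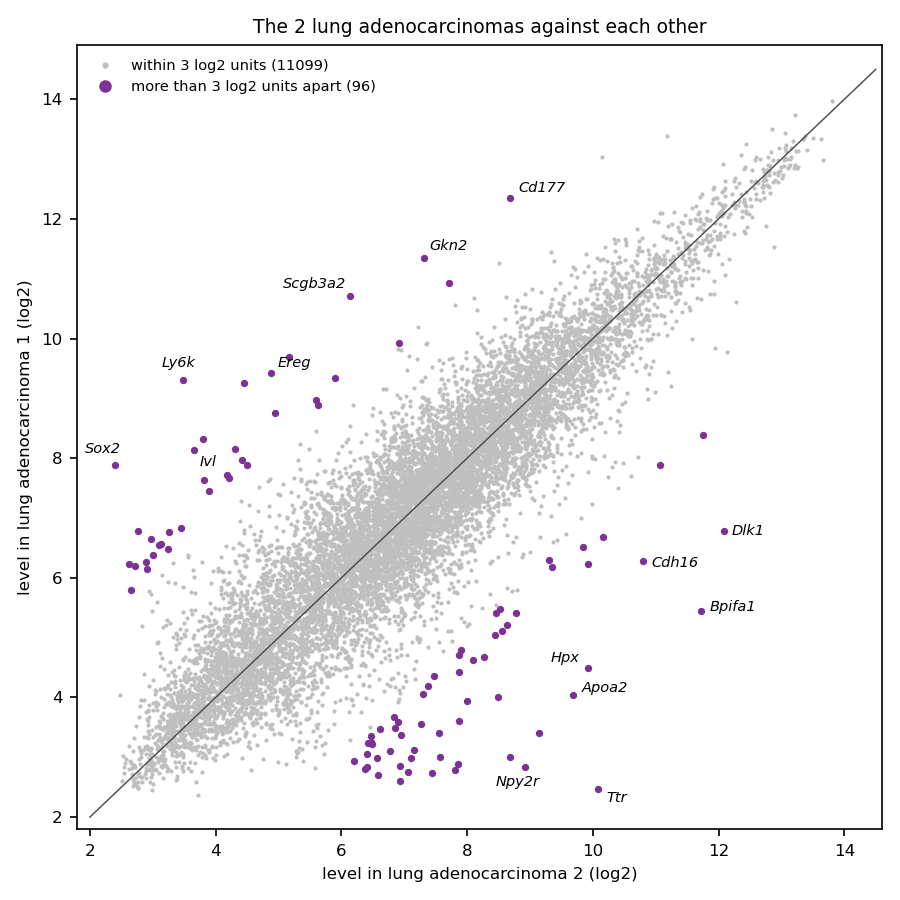
Log2 level of each tested gene in lung adenocarcinoma 1 (vertical axis) against lung adenocarcinoma 2 (horizontal axis), with genes more than 3 units apart in purple (96) and the line of equal levels. Sox2 and Ly6k stand out on the side of tumour 1, and Ttr, Bpifa1 and Dlk1 on the side of tumour 2.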

How the data were processed

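RNA of 103 mouse samples was measured on Affymetrix arrays, of which 6 are described first, with 29 tumours and 3 adenomas of other organs and 17 further sorted samples as comparators. The deposited table holds log2 values per probe set, processed by the authors with Partek 6.6, per the submitters' processing notes. That the values are log2 was read from their range of 1.85 to 14.4, and how the arrays were background-corrected, scaled and summarised per probe set is not stated in the sources used here. A difference between arrays in scaling would therefore enter every level. The number of arrays limits the precision, with 2 tumours against 4 sorted samples.

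Of 45141 probe sets, 28898 had 1 gene symbol in the platform annotation, 551 had several, 15588 had none and 104 were controls. Each of 17097 genes was represented by its probe set with the highest mean, and 16937 matched RefSeq by gene number. Genes at or below the 40th percentile of values in both groups were left out. Groups came from the labels. The test was that of limma 3.58.1 (R 4.3.3) with an intensity trend and Benjamini-Hochberg adjustment. Lung tumours were compared with lung sorted cells, with the equally weighted mean of 4 other carcinoma types, and as a tumour minus cells difference with the mean of that difference in 5 organs. The fit was tested on simulated data.

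The named genes are Prom1, defining markers, the 15 largest changes in each direction of the first comparison whose groups did not overlap, the 10 largest of the other comparisons, and up to 4 members of each list. Genes outside this rule are marked where they appear. The members and the 42 gene lists were chosen with earlier results of these data known, and 3 further lists after the values had been seen. Alternatives were quantile normalization, median centring, other filters, averaged probe sets, probe sets without cross-hybridising suffixes, no trend, a robust prior and array weights. Wider fits took in all sorted cells and primary tumours, or all primary tumours in the comparison with other carcinomas. Further alternatives left out the HCC/CC or small intestinal samples, or each lung sample.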

Additional observations from a re-analysis of the deposited data

Results flagged for a closer look

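Among 146 genes and lists checked in the 4 lung Prom1+ samples, 6 had 1 sample far from the others, a rule by which chance finds about 1 in 20 groups. Cells 3 stood low for Prom1 (5.30), for Krt18 (4.31) and for the mean of the immediate early list (10.04). Cells 1 stood apart for Atp6v1c2 (4.04) and Cxcl2 (10.70), and cells 4 for Fos (11.67). Both tumours were below the sorted samples for Prom1, Cxcl2, Fos and the immediate early list, and above them for Krt18 and Atp6v1c2, with and without these samples.

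The test of whether the tumour minus sorted cell difference of lung departs from the mean of 5 other organs called 2716 of 13160 genes. The 20 listed here are the 10 highest and the 10 lowest of those calls, so that test itself picked them. Other named genes, among them Lcn2 and Atf3, were called too. It was higher in lung for Kng1 (7.52), Arg2 (7.51), Ckmt1 (7.43), Meg3 (7.36), Atp6v1c2 (7.34), Aldh1a7 (7.22), Gkn2 (7.12), Myh7 (6.92), Chil1 (6.73) and Kcnk1 (6.69). It was lower in lung for Cxcl1 (-7.40), Cxcl13 (-7.16), F13a1 (-6.23), Ang5 (-5.76), Prkg2 (-5.53), Plat (-5.46), Ccl2 (-5.43), Clec10a (-5.39), Postn (-5.27) and Clec4d (-5.25), on the log2 scale.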

How the results depend on the processing

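Of 94 named genes called between lung adenocarcinoma and lung Prom1+ cells, 54 kept their call and direction under every alternative that tested them, as did 15 of 20 in the comparison with other carcinomas and 20 of 20 in the comparison with other organs. The counts moved far more than these genes. In the first comparison the fit to all sorted cells and primary tumours gave 2521 higher and 1105 lower genes. Array weights gave 1494 and 967. Quantile normalization gave 482 lower genes and median centring 535, against 266. Leaving out 1 sample gave 295 to 1039 higher and 94 to 466 lower genes. With other carcinomas, leaving out 1 lung tumour gave 729 to 1255 calls in all and 224 to 564 lower genes, and with other organs leaving out 1 lung sample gave 943 to 2193 higher and 480 to 1207 lower genes. The causes of these shifts were not tested. Ramp2 reversed to -3.06 (adjusted p = 0.0547) without the probe sets that may cross-hybridise. No paired analysis was possible because the labels give no replicate numbers shared between the groups. Levels under about 4.14 lie near the background of the arrays, so the size of a difference against them is limited by that floor.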

Other observations

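Genes of the imprinted Dlk1-Meg3 cluster were looked at after Meg3 had appeared among the largest increases. Rian, a noncoding RNA of the cluster, was at 7.89 and 11.07 in the adenocarcinomas and 3.25, 3.55, 3.98 and 2.97 in the lung Prom1+ cells (6.04 ± 0.83, adjusted p = 0.00129 by limma with Benjamini-Hochberg adjustment). Mirg, which hosts microRNAs of the cluster, was at 8.61 and 9.26 in the tumours and 2.65, 2.84, 2.96 and 2.75 in the sorted cells (6.14 ± 0.52, adjusted p = 0.000214). Dlk1, the protein-coding member, was at 6.79 and 12.08 in the tumours and 3.46, 3.91, 4.09 and 4.59 in the sorted cells (5.42 ± 1.15, adjusted p = 0.0151). These transcripts were near background in most sorted samples. Of 10 imprinted genes measured, 5 rose, where 5.73% of all tested genes rose. Meg3, Rian, Mirg and Dlk1 share the cluster, and the other gene was the zinc finger factor Plagl1 (1.85 ± 0.48). The list was made after the values had been seen, so this count is no test of imprinted genes. Other members had negative differences that did not pass, with -2.39 ± 0.67 for Peg3 (adjusted p = 0.0526), -1.29 ± 0.94 for Ndn and -1.14 ± 0.70 for Grb10. Igf2, an imprinted growth factor of another locus, did not pass, at 5.27 and 4.25 in the tumours and 5.60, 4.78, 5.13 and 5.35 in the sorted cells. HCC/CC tumours averaged 4.76 for Meg3, 4.07 for Rian and 3.30 for Mirg.

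Liver plasma protein genes were mostly higher in tumour 2 than in tumour 1. Both gene lists of this paragraph were made after the values had been seen. Of 13 measured hepatocyte genes, 10 were above the filter value in tumour 2 and 3 in tumour 1. In the sorted samples 1 to 4 were. That value is the 40th percentile of all gene values, so many genes of any kind lie above it. Apoa1, apolipoprotein A1, was at 7.58 and 8.42 in the lung tumours and 3.55, 3.72, 4.31 and 4.99 in the lung sorted cells. Alb, albumin, was at 7.86 and 10.30 in the lung tumours, 4.94, 6.13, 3.20 and 6.63 in the lung sorted cells and 13.88 on average in HCC/CC. Hpx, hemopexin, was at 4.49 and 9.93 in the lung tumours, 3.95, 3.65, 3.40 and 4.06 in the lung sorted cells and 13.48 in HCC/CC. Tat and Cps1, enzymes of amino acid and urea metabolism in hepatocytes, were at 3.18 and 2.85 (Tat) and 3.47 and 3.55 (Cps1) in the lung tumours, near background, while HCC/CC averaged 8.96 and 11.71. Of 13 squamous and cornified envelope genes, 3 (Ivl, Sox2 and Sprr1a) were above the filter value in tumour 1, 0 in tumour 2 and 0 to 4 in the sorted samples, and the basal keratins Krt5 and Krt14 were near background in both tumours.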
